A study of Mus musculus with 8 samples.

Results

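Mitochondrial DNA is transcribed into 13 mRNAs, 2 rRNAs and 22 tRNAs, and all 37 genes were found among the 51822 symbols of the expression files as the symbols that start with mt-. These genes were followed in RNA sequencing of mouse osteoblast progenitors cultured in osteogenic medium (α-MEM with 10% FBS, ascorbic acid, dexamethasone and β-glycerophosphate) with DMSO as control or with the aminoindazole derivative locamidazole (LAMZ) at 1 μmol·L−1. Cells were harvested at day 7 or day 14, which gives 4 groups (control day 7, LAMZ day 7, control day 14 and LAMZ day 14) of 2 libraries each and 8 libraries in all. The sample labels name the cells MC3T3-E1, an osteoblastic line, whereas the methods name cultured calvarial cells for the sequencing. The labels name no genetic change in any group. Nothing in the labels states that the 2 libraries of a group came from separate cultures, so the p-values measure only the spread between these libraries, which may be technical.

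Mitochondrial DNA encodes core subunits of the respiratory chain and of ATP synthase, together with the rRNAs and tRNAs of the ribosome that translates them inside the organelle. Both strands are read by the mitochondrial RNA polymerase as long precursor RNAs. The tRNAs lie between most mRNAs and rRNAs, and their excision releases the other RNAs. The abundance of each mature RNA therefore depends on transcription, on processing and on stability, and neighboring genes of the same precursor can reach very different levels. Differentiating osteoblasts carry out both glycolysis and oxidative phosphorylation.

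Levels are given as RPKM, that is, reads per gene length and per mapped read of that library. The number of mapped reads came to between 3463538 and 5832101 per library, as recovered from the values themselves, and at these totals all 296 values of the 37 genes were whole reads to within 3.5e-06 of a read. Libraries differed in other respects as well. The summed RPKM of 9 osteoblast markers was 16496 and 18294 in LAMZ cells at day 14 and 7177 to 10920 in the other 6 libraries. Col1a1 and Col1a2 supplied most of this sum. At day 7, Spp1 was at 84.0 and 204 in control and 1380 and 1114 in LAMZ cells, and Dmp1 at 5.57 and 8.25 against 85.5 and 86.2. Runx2, Sp7, Alpl, Ibsp and Col1a1 were also higher in both LAMZ libraries at day 7, whereas Col1a2 and Bglap overlapped. The part of these markers in the mitochondrial values was not tested. The summed RPKM of 14 macrophage markers was 480 and 631 in control cells at day 7 and 1202 and 1223 in control cells at day 14, against 7.65 and 9.27 in LAMZ cells at day 7 and 7.25 and 7.99 in LAMZ cells at day 14. C1qa, C1qb, C1qc, Tyrobp, Laptm5 and Ctss were listed at 0 in all 4 LAMZ libraries. Every comparison of LAMZ with control below is therefore also a comparison of cultures with high and with low or no macrophage marker RNA, and the part of this in the mitochondrial values was not tested. In bulk RNA, fewer cells of a type and less RNA per cell cannot be told apart. Endothelial markers summed to 0.753 to 2.82, adipocyte markers to 0.470 to 71.5 (highest in control day 14 replicate 2) and skeletal muscle markers to 1.76 to 24.9 (highest in both LAMZ day 14 libraries). Acta1 supplied most of the muscle sum there (22.8 and 18.5). Myog, Ckm, Myl1 and Myh3 were at 0.274 or less in every library. Tnnt3 was highest in LAMZ cells at day 7 (3.11 and 3.88, against 1.41 and 1.04 in LAMZ cells at day 14).

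The tRNA genes were uneven in read number, and a few sequences show which of them the data can speak about. The coordinates and sequences are those of the GENCODE M21 transcripts of GRCm38, 5′ to 3′, with the anticodon in capitals. The first 4 carried most tRNA reads, the fifth was the tRNA whose level passed a test, and the last pair had no read in any library.
mt-Tm (methionine, chrM:3845-3913, plus strand): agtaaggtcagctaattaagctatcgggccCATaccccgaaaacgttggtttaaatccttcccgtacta
mt-Tq (glutamine, chrM:3772-3842, minus strand): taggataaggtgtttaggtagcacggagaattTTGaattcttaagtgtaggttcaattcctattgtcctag
mt-Tp (proline, chrM:15356-15422, minus strand): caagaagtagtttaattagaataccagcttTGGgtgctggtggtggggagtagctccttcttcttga
mt-Tv (valine, chrM:1025-1093, plus strand): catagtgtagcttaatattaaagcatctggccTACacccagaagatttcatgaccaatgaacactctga
mt-Tl1 (leucine, chrM:2676-2750, plus strand): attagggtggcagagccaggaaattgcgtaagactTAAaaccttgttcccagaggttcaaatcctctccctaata
mt-Tw (tryptophan, chrM:4950-5016, plus strand): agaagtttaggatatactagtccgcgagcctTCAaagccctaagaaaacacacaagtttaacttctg
mt-Td (aspartate, chrM:6942-7011, plus strand): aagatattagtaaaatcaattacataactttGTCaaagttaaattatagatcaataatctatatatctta

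Some mRNA genes also share bases with a neighbor. The end of mt-Atp8 and the start of mt-Atp6, both subunits of ATP synthase, are the same 43 bases of one strand, shown here with the start codon of mt-Atp6 in capitals because reads in this stretch belong to either gene.
mt-Atp8 and mt-Atp6 (chrM:7927-7969, plus strand): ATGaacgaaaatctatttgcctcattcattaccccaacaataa
The other overlaps were 7 bases between mt-Nd4l and mt-Nd4, 14 bases between mt-Nd5 and mt-Nd6, which lie on opposite strands, and 1 base between mt-Atp6 and mt-Co3. The use of strand in the counting is not given in the sources used here, so reads of genes that overlap on opposite strands cannot be told apart. Reads on a gene such as mt-Nd6 likewise cannot be told from reads of the precursor of the opposite strand.

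Nuclear DNA holds near-identical copies of part of this genome. A stretch of chromosome 1 (chr1:24611535-24616197, GRCm38) carries 7 annotated pseudogenes that match mt-Co1, mt-Co2, mt-Atp6, mt-Co3, mt-Nd3, mt-Nd4l or mt-Nd4 over at least 200 bases at 99% identity or more. The match covered 483 of the 1545 bases of mt-Co1 and 876 of the 1378 bases of mt-Nd4. These pseudogenes together held 2 to 12 reads per library, against 11561 to 26608 reads on the 7 mitochondrial genes. The rule by which reads that match both were assigned is not given in the sources used here, so the split between copies is uncertain.

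Reads on mitochondrial DNA made up a small and similar share of the libraries, and 1 library stood above the rest. The share of mapped reads was 0.753% and 0.629% in control cells and 0.756% and 0.663% in LAMZ cells at day 7. At day 14 it was 0.744% and 0.784% in control cells and 1.04% and 0.750% in LAMZ cells. LAMZ day 14 replicate 1 stood above all others, and replicate 2 of the same group lay within the control range, so the group means of 0.764% ± 0.0285 and 0.895% ± 0.205 (SD, n = 2) overlapped in their spread. The 2 rRNA genes took 40.4% to 43.3% of mitochondrial reads in 5 of the 6 libraries outside the LAMZ day 14 group and 35.2% in the sixth, control day 14 replicate 2. In both LAMZ day 14 libraries they took more, 49.5% and 48.6%. The tRNA genes took 0.482% to 2.11%.

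**Figure D1:**
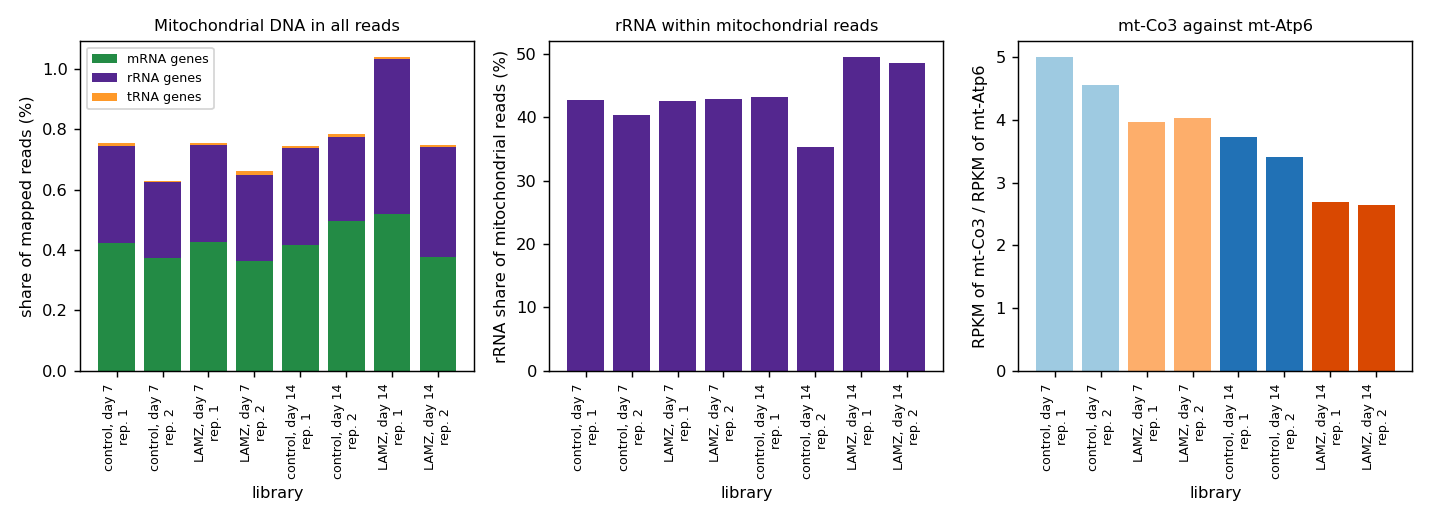
Left, share of mapped reads (%) on mitochondrial mRNA, rRNA and tRNA genes in each of the 8 libraries as stacked bars. Middle, rRNA reads as a percentage of mitochondrial reads, which were 49.5% and 48.6% in LAMZ cells at day 14 and at most 43.3% elsewhere. Right, ratio of the RPKM of mt-Co3 to that of mt-Atp6, which was 2.69 and 2.65 in LAMZ cells at day 14 and 3.42 or more elsewhere.

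The 13 mRNAs differed widely in level, and their order was stable at the top. mt-Co1, the catalytic subunit of complex IV (cytochrome c oxidase), was the highest mRNA in all 8 libraries, with a mean RPKM of 1726 and a range of 1408 to 2100. mt-Co3 (mean RPKM 621) and mt-Co2 (mean RPKM 611), the other complex IV subunits, came next and overlapped each other, and mt-Co2 lay above the following gene in all 8 libraries. mt-Atp6 of ATP synthase (171) and mt-Nd1 of complex I, the NADH dehydrogenase (162), overlapped as well. A lower tier of RPKM means held mt-Nd3 (96.9), mt-Cytb (88.2), mt-Atp8 (87.4), mt-Nd5 (70.8), mt-Nd6 (44.1), mt-Nd4 (43.9) and mt-Nd4l (38.2), and each of these overlapped its neighbor in range. mt-Cytb encodes the cytochrome b subunit of complex III, and the mt-Nd genes encode complex I subunits. mt-Nd2, also of complex I, was lowest with a mean RPKM of 24.3, and the mean of mt-Co1 was 70.9 times as high.

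**Figure D2:**
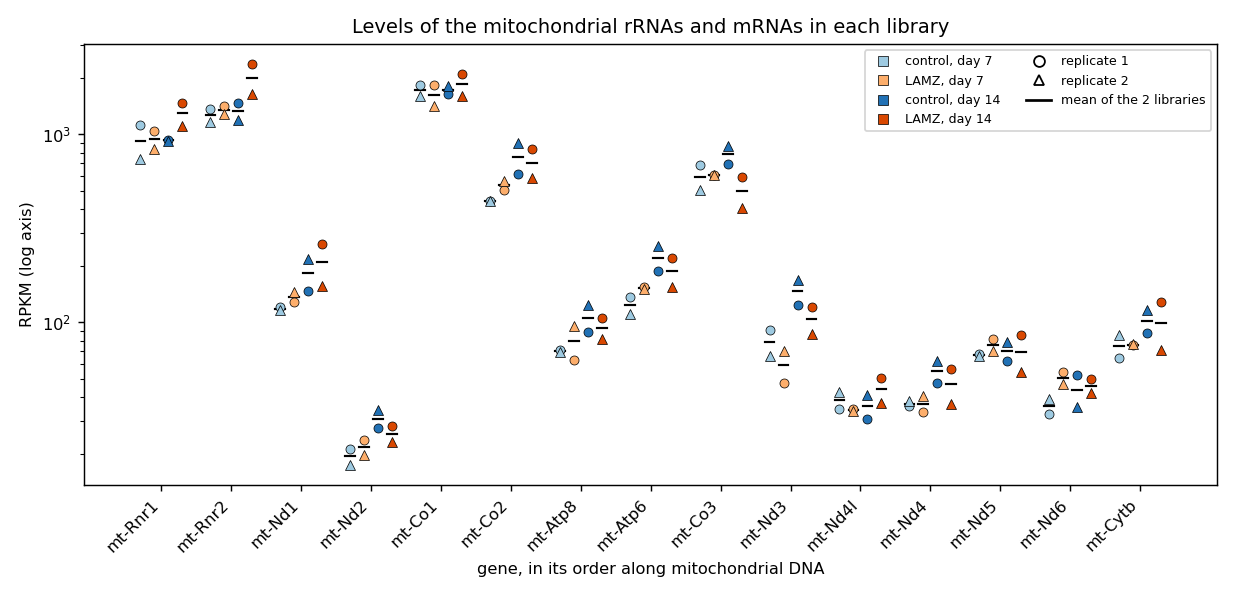
RPKM (log axis) of the 2 rRNA and 13 mRNA genes in their order along mitochondrial DNA, with 1 point per library, colors for the 4 groups and a line at the mean of the 2 libraries of a group. mt-Co1 lay between 1408 and 2100 and mt-Nd2 between 17.5 and 34.3, and at day 14 the 2 libraries of a group lay further apart for most mRNAs than at day 7.

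At day 14 most mRNAs differed between replicates in the same direction. In LAMZ cells at day 14, replicate 1 was above replicate 2 for 13 of 13 mRNAs and both rRNAs, with a median log2 difference of 0.51 over the mRNAs. In control cells at day 14, replicate 2 was above replicate 1 for 12 of 13 mRNAs (median log2 difference of replicate 1 from replicate 2, −0.40), with mt-Nd6 as the exception, whereas both rRNAs were higher in replicate 1. At day 7 the median differences over the mRNAs were 0.04 in control cells and 0.01 in LAMZ cells. The difference between replicates exceeded 2 counting standard errors for 12 of 13 mRNAs in control cells and 9 of 13 in LAMZ cells at day 14, and for 5 and 7 of 13 at day 7. Both rRNAs exceeded it in every group but control cells at day 14, where 1 did.

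At day 7, no mRNA or rRNA passed the test for LAMZ against control. For 6 of the 13 mRNAs the LAMZ libraries did not overlap the control libraries. Among all tested genes, 20.4% were higher and 35.9% were lower without overlap. Of the 12514 genes tested across the whole table, 12.8% were called in this comparison (limma on log2(RPKM + 1), adjusted p under 0.05), and of the 32 mitochondrial genes tested 1 was called, the tRNA mt-Tl1. The other 5 genes, all tRNAs, had no read in any library. An unadjusted p under 0.05 was reached by 3505 of all tested genes and by 1 mRNA, mt-Nd6, the only mRNA on the strand opposite to the other mRNA genes. Its RPKM was 32.7 and 38.9 in control cells and 54.7 and 47.0 in LAMZ cells, so both LAMZ libraries were above both control libraries. The log2 difference was 0.49 ± 0.20 (SE) with an adjusted p of 0.151 in limma.

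The complex IV mRNAs lay close together in control and LAMZ cells at day 7. For mt-Co1, the RPKM was 1838 and 1602 in control cells and 1829 and 1408 in LAMZ cells (log2 difference −0.10, 95% interval −0.54 to 0.35). For mt-Co3, it was 684 and 505 in control cells and 610 and 605 in LAMZ cells (log2 difference 0.05, 95% interval −0.46 to 0.56). For mt-Co2, it was 443 in each control library and 506 and 567 in LAMZ cells (log2 difference 0.27, 95% interval −0.24 to 0.78). The groups overlapped for mt-Co1 and mt-Co3 and did not overlap for mt-Co2, and none of the 3 passed the test.

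Complex I, complex III and ATP synthase mRNAs spread to both sides at day 7. Without overlap, mt-Atp6 had an RPKM of 137 and 111 in control cells and 154 and 150 in LAMZ cells (log2 difference 0.30, adjusted p = 0.411 in limma). mt-Nd1 (120 and 116 against 128 and 145) and mt-Nd5 (68.0 and 66.0 against 81.5 and 70.4) were also higher in both LAMZ libraries. mt-Nd4l, at 34.8 and 42.8 in control cells and 34.7 and 33.6 in LAMZ cells, was lower in both. Over the 13 mRNAs, 5 were higher and 1 was lower in both LAMZ libraries than in both control libraries, where 20.4% and 35.9% of all tested genes were. The median log2 difference was 0.14 over the mRNAs and −0.08 over all tested genes. The sign of these small differences depended on the scaling between libraries, as 9 of the 13 mRNAs were above 0 as deposited, 1 with every library scaled to the same RPKM sum and 11 with libraries centered on their median.

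The remaining mRNAs overlapped between the groups at day 7. The RPKM of mt-Nd2 was 21.2 and 17.5 in control cells and 23.7 and 19.6 in LAMZ cells. The RPKM of mt-Nd3 was 91.5 and 66.4 in control cells and 47.8 and 70.6 in LAMZ cells. The RPKM of mt-Nd4 was 35.8 and 38.1 in control cells and 33.2 and 40.7 in LAMZ cells. The groups thus overlapped for these complex I genes, and mt-Nd3 had the largest fall of the mRNAs (log2 difference −0.42, adjusted p = 0.348 in limma). Under the 4 other scalings the difference of mt-Nd3 was between −0.72 and −0.30. The RPKM of mt-Cytb was 64.4 and 85.3 in control cells and 75.8 and 76.5 in LAMZ cells, and that of mt-Atp8 was 71.5 and 69.3 in control cells and 63.2 and 96.0 in LAMZ cells. The rRNAs overlapped too. The 12S rRNA of the small ribosomal subunit, mt-Rnr1, had an RPKM of 1117 and 736 in control cells and 1037 and 840 in LAMZ cells. The 16S rRNA of the large subunit, mt-Rnr2, had an RPKM of 1362 and 1162 in control cells and 1411 and 1288 in LAMZ cells.

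At day 14 the rRNAs and the mRNA mt-Co3 lay apart between LAMZ and control cells in opposite directions, but none of the 3 passed the test. In this comparison 23.0% of all tested genes were called by limma and 0 of the 32 mitochondrial genes. Of these 32, 2, mt-Co3 and mt-Rnr2, had an unadjusted p under 0.05, as did 4595 of the 12514 tested genes. mt-Co3 had an RPKM of 694 and 872 in control cells (mean 783 ± 125, SD, n = 2) and 592 and 408 in LAMZ cells (500 ± 130, SD, n = 2). Both LAMZ libraries were below both control libraries. The log2 difference was −0.66 ± 0.22 (SE), with a 95% interval of −1.17 to −0.15 and an adjusted p of 0.0667. It remained below 0 under the 4 other scalings between libraries, between −1.05 and −0.47. The adjusted p of mt-Co3 passed the threshold under 3 of them. It was 0.00675 with every library scaled to the same sum, 0.00688 with quantile normalization and 0.0110 with the sum taken without rRNA and mitochondrial genes. Of the 12514 tested genes, 5796, 2674 and 5328 were called under these 3.

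The 2 rRNAs were higher in both LAMZ libraries at day 14. mt-Rnr2 had an RPKM of 1469 and 1191 in control cells (1330 ± 196, SD, n = 2) and 2365 and 1638 in LAMZ cells (2001 ± 514). The log2 difference was 0.57 ± 0.20 (SE), with an adjusted p of 0.0802 in limma, and it was above 0 under all 4 other scalings (0.18 to 0.76). mt-Rnr1 had an RPKM of 937 and 921 in control cells and 1474 and 1107 in LAMZ cells, with a log2 difference of 0.46 ± 0.23 and an adjusted p of 0.188, and it turned to −0.08 with quantile normalization. LAMZ day 14 replicate 1, the highest library for both rRNAs, was also the highest for 5.8S rRNA, a cytosolic rRNA (RPKM 28168, against 3399 to 23110 in the others), and the part of this in the mitochondrial values was not tested.

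None of the other mRNAs passed the test between LAMZ and control cells at day 14. mt-Nd3 was the only other gene among them with no overlap, at an RPKM of 124 and 168 in control cells and 121 and 86.5 in LAMZ cells (log2 difference −0.49, adjusted p = 0.215 in limma). Among the 13 mRNAs, 0 were higher and 2 were lower in both LAMZ libraries, where 20.1% and 44.2% of all tested genes were, and both rRNAs were higher. The median log2 difference was −0.10 over the mRNAs and −0.15 over all tested genes. Size and direction depended on the scaling, as the mRNA median was −0.46 with 0 of 13 above 0 when every library had the same sum, −0.24 with quantile normalization and 0.09 with 8 of 13 above 0 when libraries were centered on their median. With the same sum, mt-Nd2 (−0.61), mt-Atp6 (−0.60) and mt-Nd3 (−0.86) also passed the threshold, at adjusted p of 0.0233, 0.0477 and 0.0251. Of the 12514 tested genes, 5796 passed with this scaling. For mt-Co1, the RPKM was 1631 and 1801 in control cells and 2100 and 1598 in LAMZ cells, so the LAMZ libraries lay on either side of the control libraries (log2 difference 0.10, 95% interval −0.35 to 0.54). The same held for mt-Co2, at 617 and 901 in control cells and 832 and 583 in LAMZ cells. The 95% interval of the log2 difference included 0 for 12 of the 13 mRNAs, and these intervals reached from −1.10 to 0.78. For these 12, neither direction was established with 2 libraries a group.

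For the rest of complex I, the RPKM at day 14 was 147 and 218 in control cells and 262 and 157 in LAMZ cells for mt-Nd1. It was 27.3 and 34.3 in control cells and 28.1 and 23.1 in LAMZ cells for mt-Nd2, and 47.7 and 62.0 against 56.6 and 37.0 for mt-Nd4. mt-Nd4l was at 30.7 and 41.0 in control cells and 50.8 and 37.2 in LAMZ cells. In all of these the control and LAMZ libraries overlapped. mt-Nd5 was at 62.3 and 78.5 in control cells and 85.2 and 54.6 in LAMZ cells, and mt-Nd6 at 52.4 and 35.4 against 49.9 and 42.2. mt-Cytb was at 87.7 and 116 in control cells and 128 and 71.4 in LAMZ cells. The ATP synthase mRNAs overlapped as well, with mt-Atp6 at 187 and 255 in control cells and 220 and 154 in LAMZ cells and mt-Atp8 at 88.5 and 124 against 106 and 81.3.

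**Figure D3:**
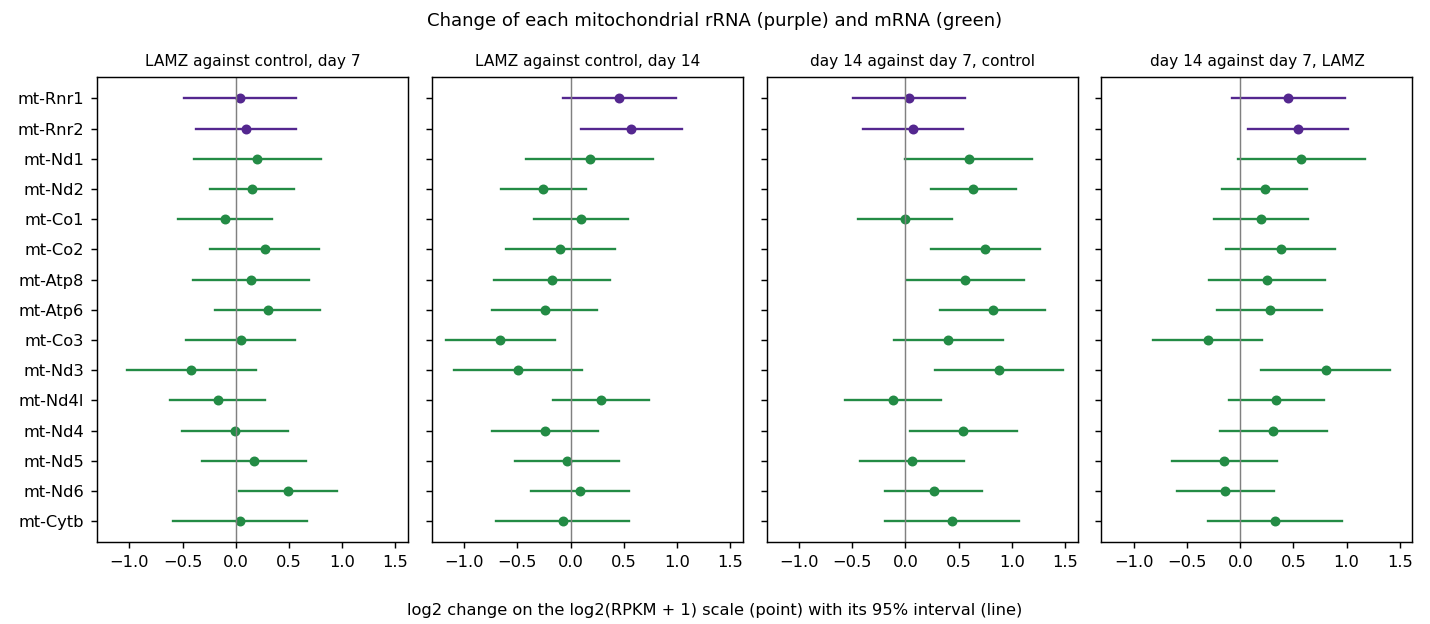
Log2 difference of each mitochondrial rRNA (purple) and mRNA (green) on the log2(RPKM + 1) scale with its 95% interval from limma, for LAMZ against control at day 7 and at day 14 and for day 14 against day 7 in control and in LAMZ cells. None of these values passed the adjusted threshold, and mt-Co3 lay at −0.66 for LAMZ against control at day 14.

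Averaged over both days, 29.5% of all tested genes were called for LAMZ against control, and 1 of the 32 mitochondrial genes, again mt-Tl1 (log2 difference −1.45, adjusted p = 0.0337). This call was lost with libraries centered on the median (adjusted p = 0.0577), with quantile normalization (adjusted p = 0.0552), with a pseudocount of 0.1 or no filter, and without control day 7 replicate 1, control day 14 replicate 1 or either LAMZ day 14 library (adjusted p of 0.0734 to 0.106). Of the 32, 4 (mt-Tl1, mt-Tk, mt-Nd3 and mt-Rnr2) had an unadjusted p under 0.05 in the averaged comparison, as did 5091 of the 12514 tested genes. The averaged log2 difference was −0.46 for mt-Nd3 (adjusted p = 0.104 in limma) and 0.34 for mt-Rnr2 (adjusted p = 0.120). The difference of the LAMZ effect between the days was tested directly. It was called for 0.623% of all tested genes and for 0 of the 32. Of these 32, 3 (mt-Tl1, mt-Tq and mt-Tl2, all tRNAs) had an unadjusted p under 0.05, as did 2061 of the 12514 tested genes. For mt-Co3 the difference between the days was −0.71 ± 0.31 (SE) on the log2 scale, with an adjusted p of 0.312. Neither contrast is independent of the comparisons within a day, which use the same libraries.

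In control cells most mRNAs were higher at day 14 than at day 7, although no gene passed the test. From day 7 to day 14 in control cells, 4.86% of all tested genes were called and 0 of the 32 mitochondrial genes. Of these 32, 9 had an unadjusted p under 0.05, as did 2727 of the 12514 tested genes. Of the 13 mRNAs, 11 were above 0 and 9 had both day 14 libraries above both day 7 libraries, where 21.0% of all tested genes did. None was lower in both, where 28.5% of all tested genes were. The median log2 difference was 0.55 over the mRNAs and −0.05 over all tested genes. The mRNAs above 0 numbered 12 or 13 of 13 under the 4 other scalings.

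The 4 mRNAs with the lowest adjusted p encode subunits of ATP synthase, complex I and complex IV. mt-Atp6 was at 137 and 111 at day 7 and 187 and 255 at day 14 (log2 difference 0.82 ± 0.21, SE, adjusted p = 0.0721 in limma). mt-Nd2 was at 21.2 and 17.5, then at 27.3 and 34.3 (0.64 ± 0.17, adjusted p = 0.0783). mt-Co2 was at 443 in both libraries and then at 617 and 901 (0.75 ± 0.22, adjusted p = 0.0979), and mt-Nd3 was at 91.5 and 66.4 and then at 124 and 168 (0.88 ± 0.26, adjusted p = 0.0998). In each of these the day 14 libraries were all above the day 7 libraries. Under the 4 other scalings mt-Atp6 and mt-Nd2 passed the threshold (adjusted p of 0.0164 to 0.0480 in limma), and mt-Co2 and mt-Nd3 did under some of them. Of all tested genes, 709 to 1135 were called there. The 5 others without overlap were mt-Nd1, mt-Atp8, mt-Co3, mt-Nd4 and mt-Cytb. The other 4 mRNAs overlapped between the days, with log2 differences of 0.00 for mt-Co1 (95% interval −0.44 to 0.44), −0.12 for mt-Nd4l, 0.06 for mt-Nd5 and 0.26 for mt-Nd6, as did the rRNAs, at 0.04 for mt-Rnr1 and 0.07 for mt-Rnr2. mt-Co1 supplied 67.1% and 66.6% of mitochondrial mRNA reads in control cells at day 7 and 60.6% and 55.9% at day 14. The macrophage markers of control cells also differed over this time, with sums of 480 and 631 at day 7 and 1202 and 1223 at day 14, and their part in the mitochondrial values was not tested.

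In LAMZ cells, most mRNAs were also above 0 from day 7 to day 14, and mt-Co3 was below. In this comparison 14.4% of all tested genes were called and 1 of the 32 mitochondrial genes, mt-Tl1. Of the 13 mRNAs, 10 were above 0, 5 had both day 14 libraries higher and 1, mt-Co3, had both lower, where 21.4% and 41.4% of all tested genes did. The median log2 difference was 0.28 over the mRNAs and −0.11 over all tested genes. mt-Nd3 was at 47.8 and 70.6 and then at 121 and 86.5 (log2 difference 0.80 ± 0.26, SE, adjusted p = 0.0779 in limma). mt-Co3 was at 610 and 605 and then at 592 and 408, whereas in control cells it was at 684 and 505 and then at 694 and 872. Both rRNAs were higher in both day 14 libraries, with log2 differences of 0.55 ± 0.20 for mt-Rnr2 (adjusted p = 0.112) and 0.45 ± 0.23 for mt-Rnr1 (adjusted p = 0.219).

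A ratio of 2 genes within a library does not depend on scaling between libraries. mt-Atp6 and mt-Co3 are neighbors on the same strand. This pair was chosen after the values had been seen, so the ratio is given as a description. The ratio of the RPKM of mt-Co3 to that of mt-Atp6 was 5.01 and 4.56 in control cells and 3.97 and 4.03 in LAMZ cells at day 7. At day 14 it was 3.72 and 3.42 in control cells and 2.69 and 2.65 in LAMZ cells. The 2 replicates of every group lay next to each other in this order, and the ratio was lower in LAMZ than in control cells at each day and lower at day 14 than at day 7 in each treatment. The ratio of mt-Co3 to mt-Co1 was 0.372 and 0.315 in control and 0.333 and 0.430 in LAMZ cells at day 7, and 0.426 and 0.484 in control and 0.282 and 0.255 in LAMZ cells at day 14, so it separated the treatments only at day 14. The ratio of mt-Rnr2 to mt-Rnr1, which are read from the same strand one after the other, stayed between 1.22 and 1.60 in all libraries. The ratio of mt-Nd6 to mt-Nd5, which lie on opposite strands, was 0.451 to 0.841, with the use of strand in the counting unknown.

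The tRNAs, 59 to 75 bases long, need caution. Mature tRNAs are short, folded and modified, and reads on a tRNA gene in a library of this kind can come from precursors that still hold it. The libraries held 105 to 727 tRNA reads each. 5 genes (mt-Tw, mt-Tn, mt-Ty, mt-Ts1 and mt-Td) were listed at 0 in all 8 libraries, and whether reads there were assigned at all is not given in the sources used here. If they were, a count of 0 allows up to 3 reads, an RPKM of 7.25 to 12.9 by library and gene. All 5 lie between bases 4950 and 7011, on either side of mt-Co1. The other tRNA genes of this stretch, mt-Ta and mt-Tc, held 0 to 7 reads per library. Another 11 genes, mt-Ta and mt-Tc among them, never exceeded 10 reads in a library, and only mt-Tm, mt-Tq, mt-Tp, mt-Tv and mt-Tg had more than 3 reads in every library. Limits and intervals of this kind hold for read counting alone, because PCR makes several reads of one molecule.

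**Figure D4:**
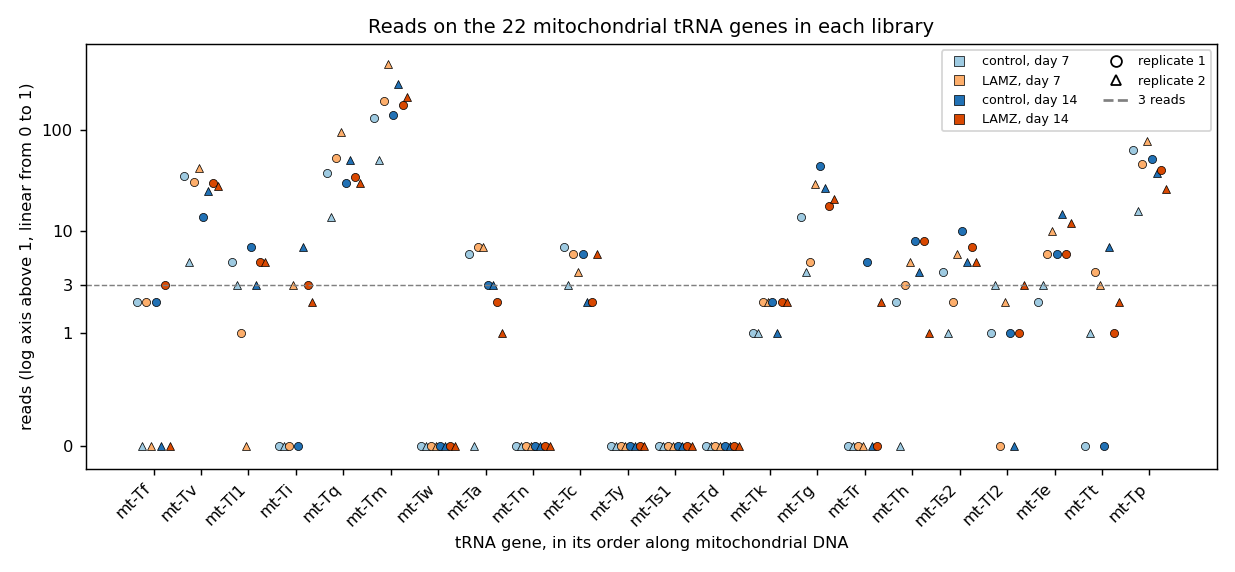
Reads (log axis above 1, linear from 0 to 1) on the 22 mitochondrial tRNA genes in their order along mitochondrial DNA, 1 point per library. mt-Tm held 51 to 441 reads, 5 genes held 0 reads in all 8 libraries, and the dashed line marks 3 reads.

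mt-Tm, the methionine tRNA, which also starts mitochondrial translation, held the most tRNA reads in all 8 libraries. It had 131 and 51 reads in control and 193 and 441 in LAMZ cells at day 7, and 141 and 282 in control and 177 and 211 in LAMZ cells at day 14. Both LAMZ libraries were above both control libraries at day 7 in RPKM, with a log2 difference of 1.45 ± 0.52 (SE) and an adjusted p of 0.115 in limma. mt-Tq, the glutamine tRNA on the other strand beside it, had 38 and 14 reads in control and 53 and 95 in LAMZ cells at day 7, and 30 and 51 in control and 34 and 30 in LAMZ cells at day 14. Its day 7 difference was 1.23 ± 0.45 with an adjusted p of 0.119. The ratio of the RPKM of mt-Tm to that of mt-Tq was 3.55 to 7.24. Neither gene separated the treatments at day 14.

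mt-Tp, mt-Tv and mt-Tg were less regular. mt-Tp, the proline tRNA, had 64 and 16 reads in control and 46 and 78 in LAMZ cells at day 7, and 52 and 38 in control and 40 and 26 in LAMZ cells at day 14. mt-Tv, the valine tRNA between the rRNA genes, had 35 and 5 reads in control and 31 and 42 in LAMZ cells at day 7, and 14 and 25 in control and 30 and 28 in LAMZ cells at day 14. mt-Tg, the glycine tRNA between mt-Co3 and mt-Nd3, had 14 and 4 reads in control and 5 and 29 in LAMZ cells at day 7, and 44 and 27 in control and 18 and 21 in LAMZ cells at day 14. The RPKM of mt-Tp and mt-Tg was lower in both LAMZ libraries at day 14, and neither passed the test. Control day 7 replicate 2 had the lowest tRNA RPKM sum (440, against 847 to 2027 in the others) and the lowest snoRNA sum (1851, against 2395 to 5078). Without control day 7 replicate 1, LAMZ at day 7 is compared with that low library alone. The log2 differences were then 2.35 for mt-Tv, 1.88 for mt-Tq and 1.45 for mt-Tp, and mt-Tl1, at −2.63, was no longer called.

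The other 11 tRNAs that passed the filter on low values were close to the limit of counting. mt-Te, the glutamate tRNA, had 2 and 3 reads in control and 6 and 10 in LAMZ cells at day 7, and 6 and 15 in control and 6 and 12 in LAMZ cells at day 14. Its day 7 log2 difference of 1.19 ± 0.53 (SE) did not pass the test in limma (adjusted p = 0.190). mt-Ta, the alanine tRNA, had 6 and 0 reads in control and 7 and 7 in LAMZ cells at day 7, and 3 and 3 in control and 2 and 1 in LAMZ cells at day 14. In RPKM its groups overlapped at day 7, and both LAMZ libraries were lower at day 14. mt-Th (histidine) and mt-Ts2 (serine) had 0 to 8 and 1 to 10 reads per library. mt-Tc (cysteine) had 2 to 7 reads per library, mt-Tt (threonine) and mt-Ti (isoleucine) 0 to 7, mt-Tr (arginine) 0 to 5, mt-Tf (phenylalanine) and mt-Tl2 (leucine) 0 to 3, and mt-Tk (lysine) 1 or 2. These differences rest on a few reads, and none of these 11 passed the test in any comparison.

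Over the 17 tRNAs tested at day 7, 6 were higher and 1 was lower in both LAMZ libraries, where 20.4% and 35.9% of all tested genes were. At day 14, 0 were higher and 3 were lower, where 20.1% and 44.2% of all tested genes were. In control cells, 4 were higher and 1 was lower at day 14 than at day 7, where 21.0% and 28.5% of all tested genes were. In LAMZ cells 1 was higher and 6 were lower at day 14, where 21.4% and 41.4% of all tested genes were.

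mt-Tl1, the leucine tRNA next to mt-Rnr2, was the tRNA that passed the test, and it did so on very few reads. It held 5 and 3 reads in control and 1 and 0 in LAMZ cells at day 7, and 7 and 3 in control and 5 and 5 in LAMZ cells at day 14. The day 7 LAMZ libraries were thus the low ones, and the libraries of the other 3 groups held 3 to 7 reads. On the log2(RPKM + 1) scale the difference was −2.91 ± 0.59 (SE) for LAMZ against control at day 7 (adjusted p = 0.0176 in limma) and 2.73 ± 0.59 for day 14 against day 7 in LAMZ cells (adjusted p = 0.0210). In reads, 1 in LAMZ against 8 in control cells is a ratio of 0.0954 per mapped read with an exact 95% interval of 0.00220 to 0.712 for counting error. The 10 reads of day 14 against the 1 read of day 7 in LAMZ cells gave a ratio of 8.84 (1.26 to 384). At day 14, LAMZ and control cells had 10 reads each, a ratio of 0.923 (0.345 to 2.47). The day 7 call was lost with a pseudocount of 0.1 (adjusted p = 0.0562), with no filter on low values (adjusted p = 0.0711) and with the day 7 libraries alone (adjusted p = 0.0930). The call over time in LAMZ cells was lost under the same changes of pseudocount and filter, with the LAMZ libraries alone (adjusted p of 0.0587 to 0.0856 over these 3), without LAMZ day 7 replicate 2 (1.71, adjusted p = 0.0610) and without LAMZ day 14 replicate 1 (adjusted p = 0.0779) or replicate 2 (adjusted p = 0.114).

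Nuclear genes for the expression of mitochondrial DNA were taken as a list of 54 genes for transcription, replication and nucleoids, RNA processing, RNA stability and RNA decay, of which 53 could be tested. At day 7, 0 were called for LAMZ against control, where 12.8% of all tested genes were. At day 14, 3 of the 53 rose and 0 fell. Of the 12514 tested genes, 23.0% were called, 871 as higher and 2007 as lower. The median log2 difference was 0.09 over the list and −0.15 over all tested genes. Lonp1, the mitochondrial protease that degrades matrix proteins including the DNA-packaging factor TFAM, had an RPKM of 14.8 and 15.9 in control cells and 34.2 and 28.9 in LAMZ cells, a log2 rise of 0.99 ± 0.13 (SE) with an adjusted p of 0.00188 in limma. It was called in this comparison under every alternative tried. Mrpl12, a ribosomal protein that also binds the mitochondrial RNA polymerase, was at 13.1 and 14.1 in control cells and 18.7 and 18.9 in LAMZ cells (0.43 ± 0.11, adjusted p = 0.0233). Atad3a, a membrane ATPase associated with nucleoids, was at 4.11 and 4.70 in control cells and 6.88 and 6.80 in LAMZ cells (0.54 ± 0.15, adjusted p = 0.0345). Neither Mrpl12 nor Atad3a was called with every library scaled to the same sum (adjusted p = 0.555 and 0.271), nor when any 1 of the 4 day 14 libraries was left out (adjusted p of at least 0.0565).

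The central transcription genes of the list did not pass the test at either day. Polrmt, the mitochondrial RNA polymerase, was at 3.96 and 4.25 in control and 2.85 and 3.65 in LAMZ cells at day 7 and at 2.86 and 2.55 in control and 2.85 and 3.54 in LAMZ cells at day 14. Tfam, which packages mitochondrial DNA and is needed for transcription initiation, was at 2.45 and 3.32 in control and 2.48 and 1.64 in LAMZ cells at day 7 and at 2.22 and 2.19 in control and 2.70 and 1.71 in LAMZ cells at day 14. Averaged over both days, 4 genes of the list rose and 0 fell. The 4 were Lonp1, Atad3a, the transcription elongation factor Tefm (0.53 ± 0.12, adjusted p = 0.0145 in limma) and Trmt61b, which methylates mitochondrial tRNA and 16S rRNA (0.53 ± 0.15, adjusted p = 0.0338). Of the 12514 tested genes, 29.5% were called in this comparison, 1141 as higher and 2545 as lower. With every library scaled to the same sum, none of the 4 passed (adjusted p of 0.0598 to 0.163). The Tefm call was also lost without LAMZ day 7 replicate 1 (adjusted p = 0.0580) or LAMZ day 14 replicate 1 (adjusted p = 0.0521), and the Trmt61b call without control day 7 replicate 2, LAMZ day 7 replicate 1, control day 14 replicate 2 or either LAMZ day 14 library (adjusted p of 0.0753 to 0.119). From day 7 to day 14, 0 were called in control cells, where 4.86% of all tested genes were. Over the same time in LAMZ cells, 14.4% of all tested genes were called. In LAMZ cells Lonp1 rose (0.80 ± 0.13, adjusted p = 0.00849) and Hsd17b10, a subunit of mitochondrial RNase P, fell by 0.43 on the log2 scale (adjusted p = 0.0405). The Lonp1 call was lost without LAMZ day 7 replicate 2 (log2 difference 0.77) or LAMZ day 14 replicate 1 (0.68). The Hsd17b10 call was lost under most alternatives. These were the 4 other scalings (adjusted p of 0.0712 to 0.312 in limma), no filter, no trend, either replicate block and the LAMZ libraries alone (adjusted p of 0.0594 to 0.122). It was also lost without any 1 LAMZ library or either control day 14 library. The difference of the LAMZ effect between the days was called for 0 of the 53 and for 0.623% of all tested genes.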

How the data were processed

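Sequencing on an Ion Proton was followed by read assignment in CLC Genomics Workbench, from which the authors deposited an RPKM for each symbol and library (build mm10 in the submitters' processing notes; program version and strand use are not given in the sources used here). Lengths, positions and sequences came from GENCODE M21 (GRCm38). Read numbers were recovered as RPKM × length × mapped reads, with the whole number of mapped reads at which low values of single-exon genes became whole (95.0% to 96.2% of those checked, tolerance 0.02 of a read). Nuclear copies were searched with blastn 2.17.0.

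Genes reaching an RPKM of 1 in 2 or more libraries (12514) were fitted as log2(RPKM + 1) in limma 3.58.1 (R 4.3.3, eBayes with trend, 4 groups, 4 residual degrees of freedom). P-values were adjusted by Benjamini-Hochberg over all of them at a threshold of 0.05. Fold changes on this scale understate the change of low genes. The fit was tested on simulated data.

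All mt- symbols were described, the 15 mRNAs and rRNAs each and the tRNAs by their reads, and nuclear genes of the list were named where they passed the test, at most 5 in each direction. Polrmt and Tfam were named for their roles after their values were seen. The genes, lists and tests were chosen with earlier results of these data known. Alternatives were other pseudocounts (0.1 and 5), filters, scalings, replicate blocks, no trend, the groups of a contrast alone and leaving out each library.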

Additional observations from a re-analysis of the deposited data

Results flagged for a closer look

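mt-Co3, which encodes a complex IV subunit, lay on opposite sides over time in the 2 treatments. Both control libraries of day 14 (RPKM 694 and 872) were above both of day 7 (684 and 505), and both LAMZ libraries of day 14 (592 and 408) were below both of day 7 (610 and 605). The nearest libraries lay close together, at 694 and 684 in control cells and 592 and 605 in LAMZ cells. The gene was flagged for this opposite lack of overlap, and its frequency among all tested genes was not counted. The log2 difference between these time courses was −0.71 ± 0.31 (SE), and limma's test of the difference did not pass the threshold (adjusted p = 0.312).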

How the results depend on the processing

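Counts of mitochondrial genes called by limma are given here for each alternative that moved them, except the fits without 1 library. In the fit used above they were 1 at day 7, 0 at day 14, 1 averaged over both days, 0 for the difference between the days, 0 over time in control cells and 1 over time in LAMZ cells. With a pseudocount of 0.1 or no filter on low values, 0 were called at day 7, averaged and over time in LAMZ cells. With an RPKM of at least 5 required, 1 was called at day 14 (mt-Co3) and 1 over time in control cells (mt-Atp6), beside 2143 and 654 genes in all. With every library scaled to the same sum, 4 were called at day 14, 5 averaged, 4 over time in control cells and 3 over time in LAMZ cells. Of the 12514 tested genes, 5796, 7207, 1135 and 1522 were called there. With that sum taken without mitochondrial and rRNA genes, the counts were 3, 4, 4 and 3, beside 5328, 6856, 1132 and 1596 of all tested genes. Centering on the median gave 1, 2, 2 and 2, beside 2857, 3553, 709 and 1829 of all tested genes. Quantile normalization gave 2, 4, 3 and 2, beside 2674, 3399, 784 and 1670. Between these scalings and the deposited values, the median of all tested genes shifted by −0.28 to 0.19 for LAMZ against control at day 14. With only the groups of a contrast in the fit, 0 were called at day 7, 2 at day 14 and 2 over time in LAMZ cells. Of all tested genes, 624, 2451 and 1303 were called there. The cause of these changes was not tested.

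Each library was also left out in turn. In every comparison at least 1 of these fits changed which mitochondrial genes were called. Such a fit leaves a group with 1 library, so its counts of called genes are not given. At day 7 the called genes changed only without control day 7 replicate 1. In a group left with 1 library, that library is assumed to vary like the other groups. No mRNA or rRNA called under an alternative had the opposite sign there to its difference in the deposited values. Over the 4 other scalings, however, the averaged difference of some of these called genes took both signs. It ranged from −0.37 to 0.10 for mt-Nd2, −0.52 to 0.15 for mt-Co1, −0.45 to 0.03 for mt-Nd4 and −0.07 to 0.49 for mt-Rnr2. At day 7 no mRNA or rRNA was called under any alternative. mt-Atp6 over time in control cells was called under 5 alternatives, with adjusted p of 0.0164 to 0.0471.

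With a replicate block across all groups, 2 genes were called at day 7 (mt-Tl1 and mt-Te), 1 at day 14 (mt-Rnr2, adjusted p = 0.0362) and 1 over time in control cells (mt-Te). Of all tested genes, 1376, 2700 and 432 were called in these comparisons. With a replicate block within each day, 2 were called at day 7, 2 averaged and 1 over time in control cells, beside 984, 2974 and 287 of all tested genes. The deviations of same-numbered libraries correlated at −0.017 (day 7), 0.016 (day 14), 0.062 (control cells) and −0.034 (LAMZ cells), so the numbers were not shown to pair the libraries.

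The mean share of reads on mitochondrial DNA was 0.691%, 0.709%, 0.764% and 0.895% of mapped reads in control day 7, LAMZ day 7, control day 14 and LAMZ day 14. With reads on genes as the denominator it was 0.862%, 0.853%, 0.977% and 1.08%. Without the rRNA genes it was 0.403%, 0.406%, 0.465% and 0.455%.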
